A study of Mus musculus with 8 samples.

Results

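The genes described here are targets that the tumor suppressor p53 is known to switch on: Mdm2, Ccng1, Bax, Bbc3, Eda2r, Phlda3, Trp53inp1, Zmat3, Tnfrsf10b and Fas. They were named as a list of 10 genes, and each was looked up by its symbol among the array probes annotated with a single gene. A value was found for 9 of the 10, each from 1 probe. Bax had no such probe in the annotation used here and was not analysed. The 9 genes are set against 19938 genes with a single-symbol probe, of which 11963 were tested after the 40% with the lowest mean had been left out. All 9 measured genes passed that filter.

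The animals were 4 male mice of the strain C57BL/6J (M24, M48, M50 and M60). Each had been injected with a vector based on adeno-associated virus (AAV) when 2 to 3 months old and was kept on a normal diet. At 18 months after injection a hepatocellular carcinoma and the adjacent normal liver of each mouse were snap frozen, which gave 4 tumor and 4 adjacent samples. The adjacent tissue comes from the same injected, tumor-bearing animals, so both groups share the vector, the age and the host, and no uninjected liver was compared. The labels do not say what the vector carried. Each RNA was measured on 1 array of an Affymetrix mouse gene platform, and the small number of arrays limits the precision.

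p53 is a transcription factor that cells stabilise after DNA damage and other stress. It binds a response element made of a pair of decamers and raises genes that stop the cell cycle, repair DNA or start apoptosis. Mdm2, a ubiquitin ligase, is both a target and the main negative regulator of p53, which closes a feedback loop. In liver, p53 restrains the division of damaged hepatocytes, and its loss is common in liver cancer.

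To show what such an element looks like in these genes, RefSeq promoters (assembly GRCm38.p6, from 250 bases before to 50 bases after the annotated start) were searched for the p53 decamer, which reads the same on both strands. A promoter was found for 7 of the 10 genes. Trp53inp1, Zmat3 and Tnfrsf10b had no entry. A decamer without mismatch was present in 3 of the 7, against 8.36% of all 32851 promoters of this length. A pair of decamers at most 13 bases apart with at most 2 mismatches was present in 2 of the 7, against 4.09% of all promoters. No mismatch was allowed at the C and the G in the core of the decamer. The counts are of genes, the 7 of which had 9 promoters, and the percentages are of promoters, so the units differ. The stretches from position -220 to -151 relative to the start follow, on the strand of the gene, because they hold all 3 matches. Capitals mark the matching decamers.
Ccng1: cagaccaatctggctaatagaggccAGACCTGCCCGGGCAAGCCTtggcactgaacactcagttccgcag
Bax: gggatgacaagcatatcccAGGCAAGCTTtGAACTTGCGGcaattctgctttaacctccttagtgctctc
Mdm2: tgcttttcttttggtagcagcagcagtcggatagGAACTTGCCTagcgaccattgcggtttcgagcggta

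These stretches lie at chr11:40755437-40755506 for Ccng1, chr7:45467049-45467118 for Bax and chr10:117710909-117710978 for Mdm2, all on the minus strand. In Ccng1 the decamers stand back to back, with 1 mismatch in the one farther from the start and 0 in the other. In Bax they are 1 base apart, with 0 and 2 mismatches. The Mdm2 stretch holds a single decamer. The well-known p53-responsive promoter of Mdm2 lies inside the gene, in its first intron, and this window does not cover it. The windows of Bbc3, Eda2r, Phlda3 and Fas held no decamer without mismatch. That says only that these letters are not in these windows.

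Across the tumors most of these targets were higher than in the adjacent liver, with rises from 1.37-fold for Ccng1 to 3.50-fold for Phlda3, and the death receptor gene Fas was lower. The measured rise of Tnfrsf10b was larger still, but it and Eda2r start from adjacent levels near background, so the sizes of those rises are uncertain. Differences are tumor minus adjacent within a mouse, in log2 units, averaged over n = 4 pairs. Their standard errors (SE) come from a limma fit over all 11963 genes in which the mouse was a block. The words rose and fell are kept for genes whose p-value, adjusted by Benjamini-Hochberg over all those genes, was under 0.05. By that rule 6 of the 9 genes rose, 1 fell and 2 did not pass. The 6 include Tnfrsf10b and Eda2r, which the filter kept through their tumor values, so a difference was likely once they were tested. Of all tested genes 31.9% passed, 16.3% as higher and 15.7% as lower. The median difference of the 9 genes was 0.68, beside 0.0008 over all genes tested. The tumor and adjacent values did not overlap in 5 genes that were higher and in 1 that was lower, against 30.5% of all tested genes in either direction (14.9% higher and 15.6% lower). Tnfrsf10b and Eda2r are among those 5 and count in the median of 0.68. In bulk tissue, more cells that express a gene and more RNA per cell cannot be told apart.

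**Figure D1:**
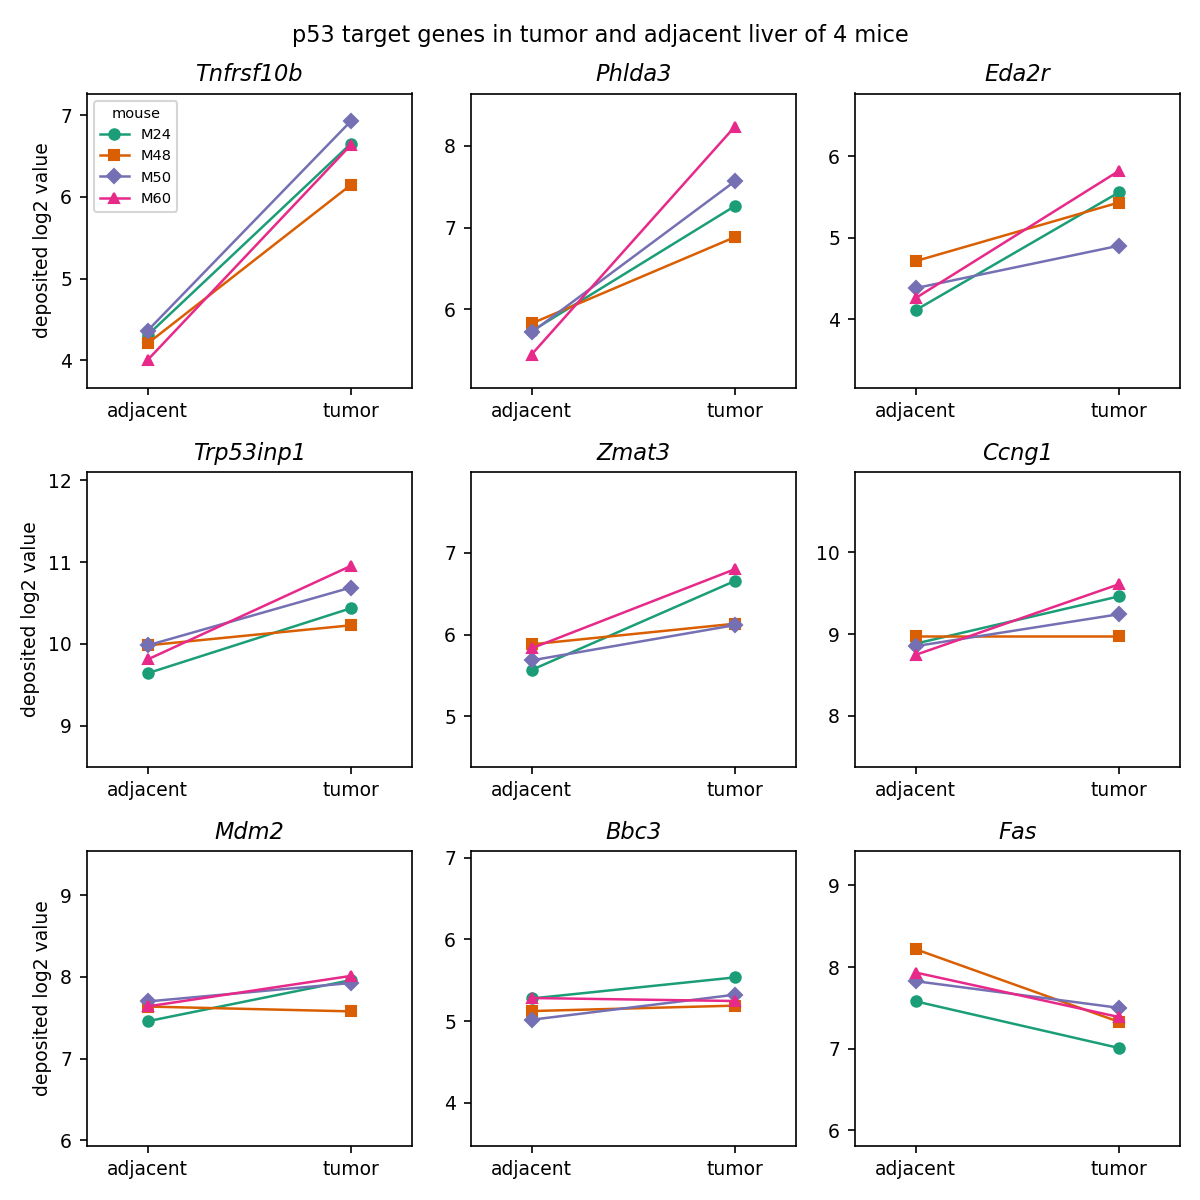
Deposited log2 value (vertical axis, 3.6 units in every panel) of the 9 measured p53 targets in adjacent liver and tumor, with a line joining the samples of each mouse. Lines climb steeply for Tnfrsf10b and Phlda3 in all 4 mice, change little for Mdm2 and Bbc3, and fall for Fas in all 4.

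The feedback regulator Mdm2 did not pass the test. Given in the order M24, M48, M50 and M60, its log2 values were 7.46, 7.64, 7.70 and 7.64 in adjacent liver and 7.96, 7.58, 7.92 and 8.01 in tumors. It was higher in the tumor of 3 mice and slightly lower in that of M48, so the groups overlapped. The difference of 0.26 (SE 0.112) did not pass, with a limma adjusted p = 0.124 and a 95% interval from -0.0059 to 0.53. Without M48 it was 0.37, with a limma adjusted p = 0.0433.

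Of the 9 targets, Phlda3 had the second largest measured difference. It encodes a small pleckstrin homology protein that competes with Akt for membrane lipids and so dampens Akt signalling. Adjacent values were 5.73, 5.83, 5.72 and 5.45 in M24, M48, M50 and M60, and tumor values were 7.26, 6.88, 7.56 and 8.23. Every tumor lay above every adjacent sample, and M60 stood highest among tumors although its adjacent liver was the lowest. The rise was 1.81 (SE 0.259, limma adjusted p = 0.00343), or 3.50-fold, and 1.37% of tested genes had a larger difference. Without M60 it was 1.48.

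Ccng1, which encodes the cyclin G1 that recruits a phosphatase to Mdm2, showed a small rise that rests on few samples. Its adjacent values were 8.88, 8.97, 8.85 and 8.75 in M24, M48, M50 and M60. Its tumor values were 9.46, 8.97, 9.24 and 9.61. The samples of M48 had the same deposited value, so the groups touch there, while the other 3 mice were higher in the tumor. The rise of 0.46 (SE 0.142) was 1.37-fold and just passed, with a limma adjusted p = 0.0489. It did not pass without M24 (0.155), without M50 (0.114) or without M60 (0.171), values that are limma adjusted p-values.

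Zmat3, an RNA-binding zinc finger protein, and Trp53inp1, a nuclear protein that promotes p53 phosphorylation and also takes part in autophagy, rose by similar amounts. Zmat3 read 5.57, 5.88, 5.68 and 5.83 in adjacent liver of M24, M48, M50 and M60, and 6.65, 6.13, 6.11 and 6.80 in tumors. The tumors of M24 and M60 were the high ones, and M48 and M50 lay only a little above the adjacent range. The Zmat3 rise was 0.68 (SE 0.160, limma adjusted p = 0.0191). It did not pass without M24 (limma adjusted p = 0.0716) or without M60 (0.0759). Trp53inp1 read 9.64, 9.98, 9.98 and 9.81 in adjacent liver and 10.44, 10.23, 10.69 and 10.95 in tumors, again without overlap. Its rise was 0.72 (SE 0.144, limma adjusted p = 0.0108), which is 1.65-fold.

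The targets that act in cell death went different ways. Bbc3 encodes Puma, a protein with only the BH3 domain that frees Bax and Bak from their inhibitors. Its adjacent values were 5.28, 5.12, 5.02 and 5.28 in M24, M48, M50 and M60, and its tumor values were 5.53, 5.19, 5.32 and 5.25. The groups overlapped and the difference of 0.15 (SE 0.1) did not pass, with a limma adjusted p = 0.305 and a 95% interval from -0.091 to 0.39. That interval does not reach the measured rises of Phlda3, Eda2r or Tnfrsf10b, of which the last 2 are of uncertain size. Bbc3 was itself low, with an adjacent mean of 5.17 against the filter value of 4.60, which also limits the comparison.

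Tnfrsf10b, the mouse death receptor for the ligand TRAIL, rose most of the 9 genes. Its values in M24, M48, M50 and M60 were 4.31, 4.21, 4.36 and 4.00 in adjacent liver and 6.65, 6.15, 6.93 and 6.64 in tumors. The lowest tumor lay far above the highest adjacent sample. The rise was 2.37 (SE 0.134, limma adjusted p = 0.000232), or 5.17-fold, and 0.777% of tested genes had a larger difference. Its adjacent mean of 4.22 ± 0.158 (SD, n = 4) was below the filter value of 4.60, which may be background, and the size of the rise is uncertain for that reason.

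Eda2r encodes a receptor of the same superfamily that binds the A2 form of ectodysplasin and has no death domain. Adjacent values were 4.11, 4.71, 4.38 and 4.26 in M24, M48, M50 and M60, and tumor values were 5.55, 5.43, 4.90 and 5.82. The highest adjacent sample (M48) came close to the lowest tumor (M50), with no overlap. The rise was 1.06 (SE 0.193, limma adjusted p = 0.00788). The adjacent mean of 4.37 ± 0.256 (SD, n = 4) was again below the filter value, so the size is uncertain here too. Both Eda2r and Tnfrsf10b passed the filter through their tumor values, which made a difference likely once they were tested.

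Fas, the death receptor through which cytotoxic lymphocytes kill hepatocytes, ran against the others. In M24, M48, M50 and M60 it read 7.58, 8.22, 7.83 and 7.93 in adjacent liver, and 7.01, 7.33, 7.50 and 7.39 in tumors. Every tumor lay below every adjacent sample, and the pair of M48 was farthest apart. Fas fell by 0.58 (SE 0.110, limma adjusted p = 0.00886), with a 95% interval from -0.84 to -0.32, and 8.22% of tested genes had a difference further down.

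**Figure D2:**
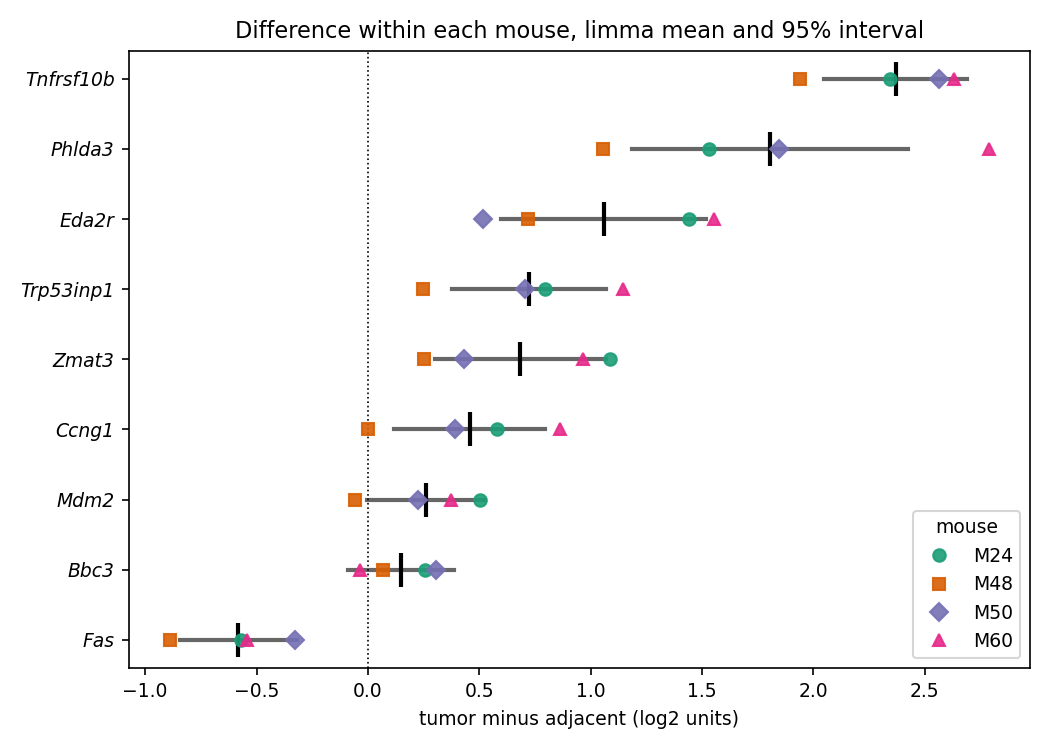
Tumor minus adjacent difference in log2 units (horizontal axis) for each of the 9 genes. Symbols are the 4 mice, the black tick is the limma mean and the grey bar its 95% interval. The intervals of Mdm2 and Bbc3 include 0, and that of Fas lies wholly below it.

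The mice differed in how far the targets moved. Of the 6 genes that rose, 5 had their smallest difference in M48 and 5 their largest in M60. The median difference of these 6 genes was 0.48 in M48, 0.61 in M50, 1.26 in M24 and 1.35 in M60. Over all 1945 genes that rose, the medians lay closer together, at 0.62 in M48, 0.76 in M50, 0.58 in M24 and 0.76 in M60. A median over 6 genes, chosen because they rose in these data, varies more than one over 1945, so nothing is read from the wider spread. Each mouse gave 1 pair, so a difference between mice was not tested. The tumor of M60 also stood apart in summed lymphocyte markers. The summed linear level of 6 B cell markers was 1177 there and 151 to 297 in the other tumors, and that of 9 T and NK cell markers was 766 against 244 to 327. Jchain, at 9.86 log2 in that tumor, carries most of its B cell sum. Among the tumors Ighm (6.88) and Cd79b (5.88) were also highest in M60, while Pax5 (4.77) was not. Between tumor and adjacent liver, 0 of 4 tested B cell and 0 of 5 tested T and NK cell markers passed by limma. That compares with 31.9% of all genes tested. At an unadjusted p under 0.05, 1 and 4 were higher in tumors. The part of lymphocytes in the values of M60 was not tested. Without M60 the differences were 2.28 for Tnfrsf10b, 1.48 for Phlda3, 0.89 for Eda2r, 0.58 for Trp53inp1 and -0.60 for Fas, and all 5 still passed.

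**Figure D3:**
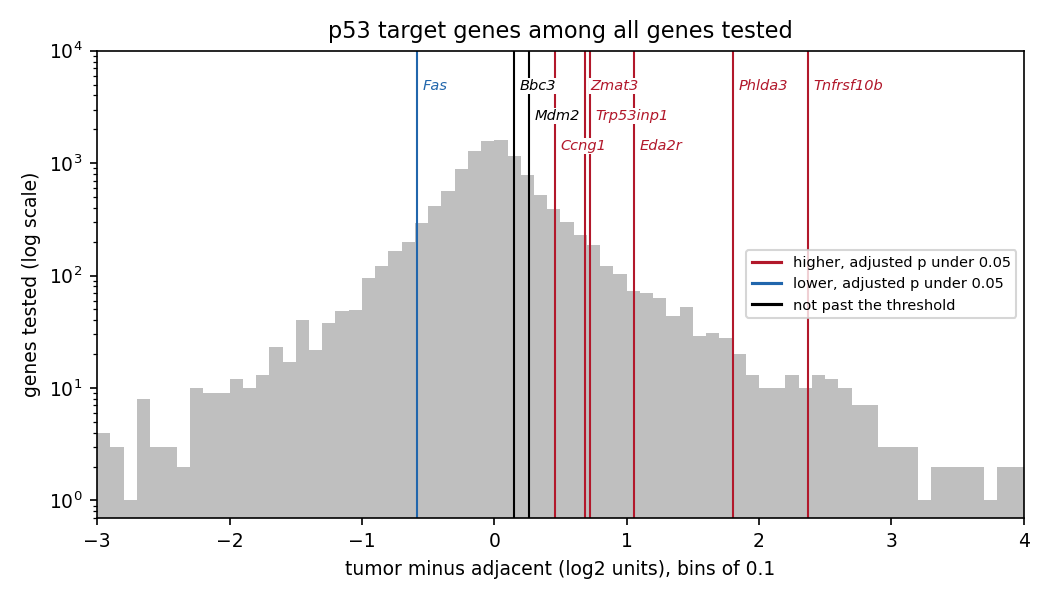
Number of tested genes (vertical axis, log scale) by tumor minus adjacent difference in log2 units, in bins of 0.1, shown from -3 to 4. Vertical lines mark the 9 p53 targets: Phlda3 and Tnfrsf10b sit in the sparse right tail, while Mdm2 and Bbc3 lie within the bulk.

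Other markers give the setting of these values. The samples were liver by their hepatocyte genes: the 8 measured markers summed to 64821 to 70847 in adjacent tissue and to 59987 to 69068 in tumors, ranges that overlap. The most abundant of them, such as Alb, carry that sum. Gene by gene, 3 of the 8 fell, Cps1 by 0.84, Asgr1 by 0.60 and Hnf4a by 0.35, and Apoa1 rose by 0.32, all without overlap between the groups. Hnf4a did not pass when any 1 mouse was left out, nor did Apoa1 without M24, M48 or M60. The 7 cholangiocyte markers summed to 228 to 321 in adjacent tissue and 406 to 834 in tumors, without overlap. Sox9, Prom1 and Cd24a carry most of that sum in tumors. Gene by gene, 4 of 6 tested rose and 0 fell: these 3 and Krt19. Krt7 (limma adjusted p = 0.401) and Epcam (0.0504) did not pass, and Cftr was not tested. Leaving out 1 mouse gave 3 to 5 higher. Endothelial markers summed to 1538 to 1955 and 2102 to 2933, also without overlap. Of these 8 genes 4 rose and 0 fell, and Clec4g, the largest term of the sum, stood at -0.10 and did not pass. Of 9 stellate cell and fibroblast markers 5 rose and 0 fell by limma (5 and 0 at an unadjusted p under 0.05): Acta2 by 2.21, Col3a1 by 1.94, Col1a1 by 1.92, Col1a2 by 1.49 and Pdgfrb by 0.58. The tumor and adjacent values of the first 4 did not overlap, and Pdgfrb did not pass without M24, M50 or M60. The other 4 markers did not pass. Of these Lrat (-0.37), Dcn (-0.25) and Des (-0.18) were lower on average in tumors, and Reln (0.23) was higher. Over all genes tested 16.3% rose and 15.7% fell. The sums of this list (2638 to 5386 and 4434 to 5530) and those of macrophage markers (2015 to 8264 and 3073 to 8326) and neutrophil markers (115 to 229 and 110 to 157) overlapped. Gene by gene, 2 of 10 macrophage and Kupffer cell markers rose, Ccr2 by 0.99 and Cd68 by 0.98. In the same list 2 fell, Marco by 1.29 and Clec4f by 0.65. The groups overlapped in each of these genes, and with no replicate block 0 rose and 0 fell. Among the lymphocyte markers the means of Cd79a, Ms4a1, Cd3d, Cd4, Ncr1 and Gzmb were below the filter value in both groups. The part of these cell types in the rises and in the fall of Fas was not tested.

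Of the other genes known as p53 targets, 32 of 37 listed were tested, and 9 rose and 3 fell, with a median of 0.03. Over all genes tested 16.3% rose and 15.7% fell. The antiproliferative gene Btg2 had adjacent values of 6.29, 6.87, 5.46 and 5.58 and tumor values of 8.89, 8.75, 8.64 and 9.43 in M24, M48, M50 and M60. It rose by 2.88 (SE 0.292, limma adjusted p = 0.0011), with all tumors above all adjacent samples. Ddit4, an inhibitor of mTORC1 signalling, rose by 1.70 and Apaf1, the scaffold of the apoptosome, by 1.06. Psrc1, a spindle protein, rose by a measured 1.73 from an adjacent mean of 4.30 that lay below the filter value, so its size is uncertain and it passed the filter through its tumor values. Pmaip1, which encodes the BH3 protein Noxa, rose by 0.42 (limma adjusted p = 0.0205), but not without M24, M50 or M60, where its adjusted p lay between 0.0563 and 0.0772. The genes that fell were Ei24 (-0.53), Dcxr (-0.69) and Ephx1 (-0.36), of which 1 was left without M24, while 5 genes of the list fell without M48. Ephx1 did not pass with no replicate block (limma adjusted p = 0.192) or without M60 (0.0794), nor Dcxr without M50 (0.074). The other 20 tested genes did not pass. The probe of Cdkn1a, the cell cycle inhibitor p21, is annotated with a second gene as well, so it was not used here.

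Genes of the cell cycle that p53 lowers indirectly, through p21 and the DREAM repressor complex, were higher in the tumors. Of 21 tested genes 16 rose and 1 fell, beside 16.3% and 15.7% of all genes tested, with a median of 0.97. The replication helicase genes Mcm6 and Mcm2 rose by 1.73 (SE 0.0954) and 1.12 and Cdc20, an activator of the anaphase-promoting complex, by 1.21. The mitotic kinase Aurkb rose by 0.90 from an adjacent mean of 4.55, just below the filter value. The repressor E2f8 fell by 1.05, and 2 genes of the list fell without M48. Of 30 genes on the array 9 were left untested by the filter, which favours genes that are high in tumors. Ccna2, Mki67, Plk1, Top2a, Kif20a, Ube2c, Brca1, Aurkb and Ccnb2 rose from adjacent means below the filter value (3.88 for Ccna2, 4.595 for Ccnb2). They were tested through their tumor values, which made a rise likely, and they count in the median of 0.97.

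Among regulators of p53, 4 of 22 tested genes rose and 3 fell, beside 16.3% and 15.7% of all genes tested. The median was -0.06. Trp53 itself had no single-symbol probe here and was not analysed. Cdkn2a, among whose products Arf inhibits Mdm2, was measured by 1 probe, which gives a value for the gene and not for each product. It read 4.98, 4.86, 4.82 and 4.87 in adjacent liver of M24, M48, M50 and M60 and 6.35, 5.26, 5.28 and 6.51 in tumors. All 4 tumors were higher, those of M24 and M60 by far the most. The rise was 0.97 (SE 0.229, limma adjusted p = 0.02), but did not pass without M24 (limma adjusted p = 0.0829) or without M60 (0.0596). Mdm4, the partner of Mdm2, stood at 0.05 (limma adjusted p = 0.768), and its sign turned when each array was centred on its median. The deacetylase Sirt1 fell by 0.93 (SE 0.0913) and the kinase Hipk2, which phosphorylates p53, by 1.09. The checkpoint genes Trp53bp1 and Chek2 rose by 0.57 and 0.55, but the adjacent mean of Chek2, at 4.36, lay below the filter value, which it passed through its tumor values. Without M60, 2 regulators rose.

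Partners of the cell death targets were mixed. Of 22 tested genes of the Bcl2 family and the intrinsic pathway 4 rose and 2 fell, with a median of -0.04. Over all genes tested 16.3% rose and 15.7% fell. The survival gene Bcl2l1, which encodes Bcl-xL, read 7.54, 7.68, 7.80 and 7.83 in adjacent liver and 8.69, 8.83, 8.50 and 9.0 in tumors of M24, M48, M50 and M60. It rose by 1.04 (SE 0.106, limma adjusted p = 0.00111), with no overlap. The pore-forming relatives of Bax also rose, Bok by 0.98 and Bak1 by 0.52, while the BH3-type mitophagy gene Bnip3 fell by 1.11. Bcl2 rose by 0.49 (limma adjusted p = 0.0468), but lost the call without any 1 of the 4 mice and fell to 0.31 without M60. The lower genes were Bnip3 and Bik (-0.58), and 1 of them was left without M24, without M50 or without M60.

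The ligands of the receptors were low or did not pass. Fasl (3.42 in adjacent liver and 3.37 in tumors) and Eda (4.58 and 4.40) lay below the filter value and were not tested. Tnfsf10, which encodes TRAIL, stood at 0.49 (SE 0.245) and did not pass, with a limma adjusted p = 0.178, and at 0.29 without M50. In the death receptor list 4 of 17 tested genes rose and 1 fell, beside 16.3% and 15.7% of all genes tested. The median was 0.07. Tnfrsf12a, the receptor of the ligand Tweak, rose by 2.43 (SE 0.122). Tnfrsf23 and Tnfrsf22, the TRAIL receptors of the mouse that lack a death domain, rose by 1.37 and 0.72, from adjacent means of 4.35 and 4.45 that lay below the filter value. Both were tested through their tumor values, which made a rise likely, and both count among the 4. The filter, which favours genes that are high in tumors, left 17 of the 25 genes of this list on the array. The adaptor Traf6 fell by 0.43, a call that was lost without M60 (limma adjusted p = 0.0621).

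Most genes of autophagy, in which Trp53inp1 takes part, did not pass. Of 15 tested genes 0 rose and 4 fell by limma (1 and 6 at an unadjusted p under 0.05), with a median of -0.12. Over all genes tested 16.3% rose and 15.7% fell. Gabarapl1, an Atg8 family gene, fell by 1.17 (SE 0.0976), Map1lc3a by 1.19, the lysosomal Lamp2 by 0.63 and the kinase Ulk2 by 0.54. Without M60 2 of the 15 fell, and without M48 1 gene rose.

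**Figure D4:**
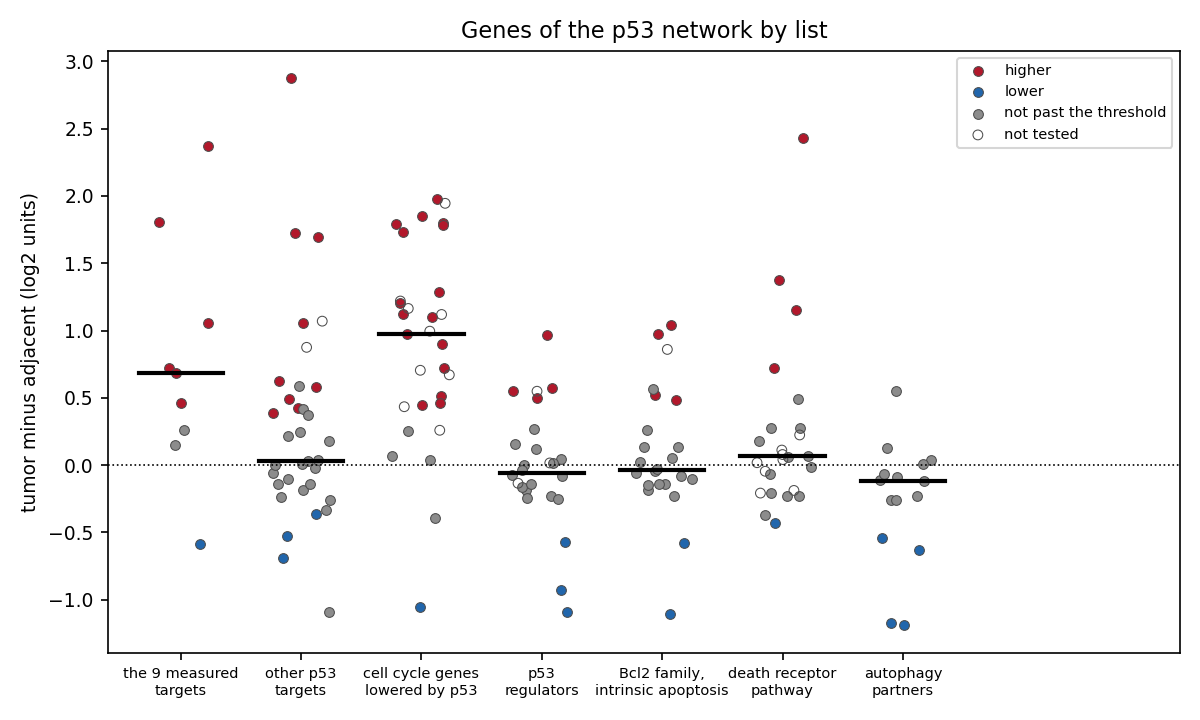
Tumor minus adjacent difference in log2 units (vertical axis) of every measured gene in the 9 p53 targets and the 6 lists around them, 1 point a gene. Filled red, blue and grey points are higher, lower and not past the threshold, open points were not tested, and black bars are medians of the tested genes: 0.68 for the 9 targets and 0.97 for the cell cycle genes, with the other lists between -0.12 and 0.07.

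For each of the 9 genes, the tested genes with the most similar course over the 8 arrays were found by the root-mean-square distance between mean-centred log2 values. Nearest to Tnfrsf10b were Fhl3 at 0.189, Rhoc at 0.204 and Cdkn2b at 0.217 log2 units. Nearest to Phlda3 were Rasgrp2 at 0.126, the p53 target Psrc1 at 0.184 and Chka at 0.212. Fas was closest to Spaca6 at 0.0998, Smg5 at 0.102 and Gpd1l at 0.106. The distances are descriptions over 8 arrays of 4 mice, in which the step between tumor and adjacent tissue carries much of each course.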

How the data were processed

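The deposited values are log2 expression levels of 28874 probes on 8 arrays, in 1 table. The log base was taken from the values, which ran from 1.92 to 14.49, and column medians of 4.89 to 5.01 show that the arrays were already on a common scale. The submitters' processing notes name MAS5, and how background was corrected and arrays normalized is not given in the sources used here. No detection calls or scan dates were used, so batches were not tested.

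Probes with a single gene symbol (21789) gave 19938 genes, each by its probe with the highest mean. Tumors were compared with adjacent liver by limma 3.58.1 in R 4.3.3 (lmFit, eBayes with a trend, two-sided), with the mouse as a block, since both tissues came from each mouse per the design text. Deviations from the group means correlated at 0.0986 to 0.421 within mice and at -0.378 to 0.189 between mice. The fit was also run on simulated data in which far fewer genes differed than passed here, so nothing is concluded from that run. Genes named are the 9 targets, up to 4 genes with the smallest p per list, 10 regulators, ligands and partners, and the 3 nearest profiles per target. Others were chosen after their values were seen. The targets and lists were chosen with earlier results of these data known. Summed marker levels add linear values of the probes.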

Additional observations from a re-analysis of the deposited data

Results flagged for a closer look

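Among the 40 genes named by rule, 80 groups of 4 samples were searched for a sample far from the other 3, which chance alone gives in about 1 in 20 groups. It was found in 2. Tnfsf10, the TRAIL gene, was at 6.06 in the adjacent liver of M24, against 5.07 to 5.20 in the other adjacent samples. Bak1 was at 6.45 in the tumor of M60, against 6.67 to 6.69 in the other tumors. None of the 9 p53 targets had such a sample in either group.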

How the results depend on the processing

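With no replicate block, 6 of the 9 targets rose and 1 fell, as with the block, and of the other genes computed this way Pmaip1 (adjusted p = 0.0832), Ephx1 (0.192) and Pdgfrb (0.0804) lost their calls. The macrophage markers Ccr2, Cd68, Marco and Clec4f lost theirs too. Over 13 alternatives the targets kept their direction. Eda2r, Phlda3, Trp53inp1, Tnfrsf10b and Fas passed in each alternative that tested them, Zmat3 in 10 of 12 and Ccng1 in 6 of 13, with adjusted p-values of 0.0134 to 0.0759 and 0.0141 to 0.171. With the lowest 60% of genes left out, 5 targets were tested and 3 rose, and 13 genes of the lists rose in place of 37, because fewer were tested. Leaving out 1 mouse gave 4 to 7 targets higher and 1 lower each time, 30 to 38 list genes higher, and 8 to 16 lower beside 14. The lowest of these, 8, was without M60. Mdm4 turned to -0.0079 with arrays centred on their medians and ran from -0.018 to 0.13 when a mouse was left out. Centring each array on its median moved the median of all genes to -0.055 and ended the calls of Ccng1 (adjusted p = 0.0601) and Bcl2 (0.0535). Signal near background limits Tnfrsf10b, Eda2r, Psrc1, Chek2, Tnfrsf22, Tnfrsf23, Aurkb and the other cell cycle genes whose adjacent means lay below the filter value. The cause of the changes not explained by fewer genes or mice was not tested.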
